A study of Homo sapiens with 6 samples.

Results

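The integrated stress response and the ER stress response were examined through 10 genes: the transcription factors ATF4, ATF3 and DDIT3, the ATF4 targets ASNS, TRIB3, CHAC1, SESN2 and DDIT4, and the ER stress genes HSPA5 and XBP1. They were chosen by name as well known genes of these responses, and their Ensembl identifiers were found among the 58735 genes of the count table through GENCODE release 29. RNA-seq was carried out on H9 cells, a line of human embryonic stem cells (hESCs) of wild-type genotype, that had been differentiated towards the endoderm of the third pharyngeal pouch (3PPE), the tissue from which thymus and parathyroid arise. At day 7 the cells received either a negative control siRNA (siControl, 3 libraries) or an siRNA against HOXA3 (siHOXA3, 3 libraries) with Lipofectamine 3000, so that both groups carried the lipid reagent and an siRNA. In both groups the medium was replaced by opti-MEM hours later and the cells were harvested at day 9. No library of cells without siRNA was analysed here, and all libraries came from a single cell line.

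In the integrated stress response, kinases that sense amino acid shortage, unfolded protein in the ER, double-stranded RNA or heme shortage phosphorylate the translation factor eIF2. Bulk protein synthesis then falls while the mRNA of ATF4 is translated more, and ATF4 switches on genes of amino acid supply as well as ATF3, DDIT3 and TRIB3. The ER stress response, also called the unfolded protein response, adds the sensors ERN1 (IRE1) and ATF6, which act through spliced XBP1 and through chaperone genes such as HSPA5. RNA counts per gene show neither the translation of ATF4 nor the splicing of XBP1.

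None of the 10 genes passed the test of a difference between siHOXA3 and siControl. The count of genes with an adjusted p under 0.05 in edgeR's quasi-likelihood test was 0 of 10, against 1 of all 16561 genes tested (0.00604%). At an unadjusted p under 0.05 it was also 0 of 10, against 6.36% of all genes. DESeq2 called 0 of 10 as well, against 36 of all 16561 genes. The groups did not overlap for 1 of the 10 genes, ATF3, against 13.3% of all genes (6.88% with siHOXA3 lower). In siHOXA3, 6 of the 10 genes had a log2 fold change above 0 (50.4% of all genes) and 4 below 0 (49.6%), with a median of 0.04 beside 0.00 for all genes. The 95% intervals of the fold changes reached down to 0.584 for ASNS and up to 1.68 for DDIT3. They differed between genes and were narrower for HSPA5 (0.810 to 1.22), SESN2 (0.854 to 1.26) and XBP1 (0.856 to 1.24). A change of a size inside a gene's own interval was not excluded for that gene. The lowest unadjusted p, that of TRIB3, ranked 2113 among all genes.

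HOXA3, the targeted gene, had 16.6, 15.9 and 15.5 CPM (counts divided by the normalized library size and scaled alike in every library) in siControl replicates 1, 2 and 3 and 10.9, 13.2 and 15.5 CPM in siHOXA3 replicates 1, 2 and 3. The library labelled siHOXA3 replicate 3 lay above siControl replicate 3, and the groups overlapped (log2 fold change -0.27, SE 0.16, edgeR adjusted p = 0.828, exact permutation p = 0.2). The log2 fold change of HOXA3 depended on single libraries: it was -0.15 without siHOXA3 replicate 1 and -0.40 without the library labelled siHOXA3 replicate 3 (unadjusted p = 0.0385 and adjusted p = 0.596 in edgeR). Total counts lay between 14117150 and 15282307 per library, so that 3 counts were worth 0.197 to 0.211 CPM. By other methods, the study reported a significant reduction of HOXA3 after the siRNA, in mRNA by qRT-PCR and in protein by Western blot. It also described relatively weak HOXA3 immunofluorescence. The study describes the repeats of the HOXA3 siRNA experiment as independent biological repeats, without naming the sequencing. The library siHOXA3 replicate 2 stood apart: its 5 pairs with other libraries had a chi-square per gene of 27.9 to 33.9, against 4.80 to 11.7 in the other 10 pairs, and it held the highest value of 28.9% and the lowest of 29.2% of all genes tested. The fold changes of the 10 genes and the counts of the lists are therefore given with and without it.

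The labelled cell type was checked against its markers. Of 11 pouch and foregut endoderm genes, 5 passed the filter on low counts. The summed level of the list was 831 to 877 CPM in siControl and 856 to 918 CPM in siHOXA3. PAX1, PAX8 and SOX17 had no count in siControl and at most 3 counts in any siHOXA3 library, and TBX1 and FOXA2 had at most 10 counts in any library. Of 12 amnion and trophoblast genes, 11 passed, and their summed level was 6030 to 6546 CPM in siControl and 6563 to 7258 CPM in siHOXA3. The part of this difference in the stress gene values was not tested, and in bulk RNA fewer cells of a type and less RNA per cell cannot be told apart. Mesenchyme genes (8 of 9 passed, PRRX1 without a count) summed to 4519 to 4689 CPM in siControl and 4536 to 5039 CPM in siHOXA3, and pluripotency genes (4 of 6, TDGF1 without a count in siControl) to 1139 to 1181 and 1190 to 1326 CPM. Neural genes (1 of 7 passed) and liver genes (3 of 6) were low, with sums of at most 95.8 and 6.24 CPM.

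To compare levels between the genes, CPM were divided by the length of each gene's exons in kilobases. In siControl HSPA5 was the highest at 269 ± 12.7 CPM per kilobase (SD, n = 3), followed by ATF4 at 124 ± 10.4, DDIT4 at 43.4 ± 11.3, XBP1 at 43.3 ± 3.06 and SESN2 at 23.4 ± 2.52. Below them came ATF3 at 11.3 ± 0.452, TRIB3 at 6.28 ± 1.24, CHAC1 at 5.36 ± 1.37, DDIT3 at 4.58 ± 1.34 and ASNS at 1.51 ± 0.0520 CPM per kilobase. HSPA5 was thus 178.8-fold above ASNS per length. Exons of the gene AC079781.5 on the same strand overlap 44.6% of the exon bases of ASNS. The level of ASNS, its place in this order and this ratio are therefore uncertain. Over the 6 libraries the ranges of DDIT4 and XBP1, of TRIB3 and CHAC1, and of CHAC1 and DDIT3 overlapped, and every other neighbouring pair in this order was separate in all 6 libraries. Every gene had at least 62 counts in every library, the low end of this order included.

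**Figure D1:**
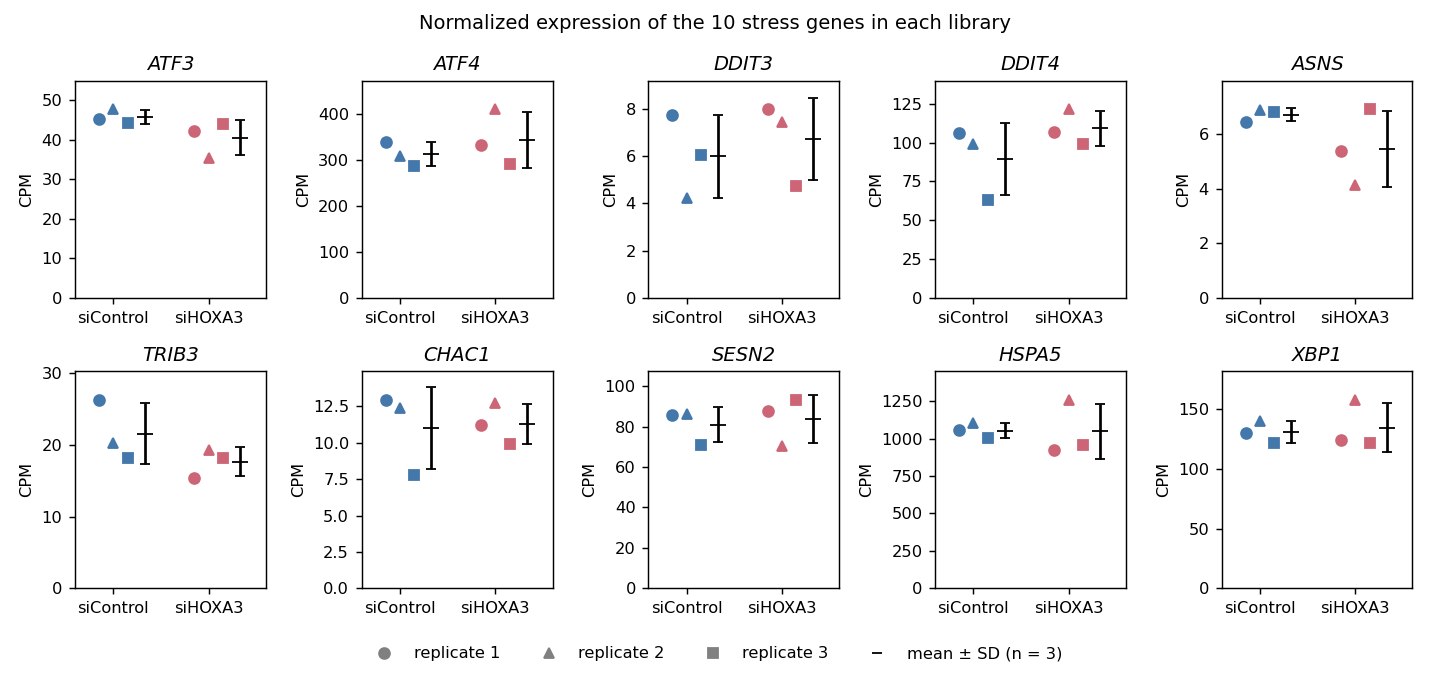
Normalized expression (CPM, vertical axes from 0) of each of the 10 genes in the 3 siControl (blue) and 3 siHOXA3 (red) libraries, with the marker shape giving the replicate number and the black bar the mean ± SD (n = 3). The groups overlap for every gene except ATF3, whose siControl libraries lie between 44.2 and 47.7 CPM and whose siHOXA3 libraries lie between 35.5 and 44.0 CPM.

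The 3 transcription factors stood at different levels and did not share a direction. ATF4 (ENSG00000128272, chromosome 22 from 39519695 to 39522685, plus strand), the bZIP factor at the centre of the response, had 339.7, 309.0 and 287.9 CPM in siControl replicates 1, 2 and 3 and 332.8, 410.4 and 290.5 CPM in siHOXA3 replicates 1, 2 and 3. Replicate 2 of siHOXA3 was the highest, and the other 2 siHOXA3 libraries lay within the siControl range. The log2 fold change was 0.14 with an SE of 0.14, and the 95% interval of the fold change was 0.898 to 1.36 (edgeR adjusted p = 0.880). Without siHOXA3 replicate 2 it was -0.01. ATF4 shares 18.0% of its 50-base transcript stretches with its pseudogenes, of which only ATF4P3 had counts, 2 to 13 per library against 4125 to 6171 of ATF4.

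ATF3 (ENSG00000162772, chromosome 1 from 212565334 to 212620777, plus strand), a stress-induced bZIP factor that can act as a repressor, had 45.2, 47.7 and 44.2 CPM in siControl and 42.2, 35.5 and 44.0 CPM in siHOXA3. All siHOXA3 libraries were lower than all siControl libraries, but the gap between the nearest libraries, siControl replicate 3 and the library labelled siHOXA3 replicate 3, was only that between 44.2 and 44.0 CPM. The difference did not pass the test (log2 fold change -0.17, SE 0.12, edgeR adjusted p = 0.843), and the exact permutation test gave p = 0.1, the smallest that 3 libraries against 3 allow. Without siHOXA3 replicate 2 the log2 fold change was -0.09.

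DDIT3 (ENSG00000175197, CHOP, chromosome 12 from 57516588 to 57521737, minus strand), a factor tied to cell death under prolonged ER stress, had 7.72, 4.23 and 6.03 CPM in siControl and 7.98, 7.45 and 4.72 CPM in siHOXA3. High and low libraries occurred in both groups, with siControl replicate 2 the lowest and siHOXA3 replicate 1 the highest. DDIT3 had the widest spread of the 3 factors, a CV of 29.1% in siControl and 26.0% in siHOXA3, and its fold change had an interval of 0.748 to 1.68 (log2 fold change 0.17, SE 0.27, edgeR adjusted p = 0.926). Without siHOXA3 replicate 2 the log2 fold change was 0.08, and over all libraries left out in turn it ran from -0.03, without siControl replicate 2, to 0.39, without siControl replicate 1. On the opposite strand its exons overlap those of MARS and MBD6 over much of their length, 39.6% of DDIT3 exon bases counting all overlapping genes, and MARS had 3079 to 3743 counts against 64 to 116 of DDIT3. Since the use of strand in counting is not stated, reads of these genes cannot be told apart there.

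ATF4 binds many of its targets together with C/EBP factors at a composite site called the amino acid response element. The 250 bases before the RefSeq start sites of the targets ASNS and CHAC1 are shown because they hold the letters searched for this element, TGATGNAA or its reverse complement TTNCATCA, in capitals. All sequences are from RefSeq on GRCh38.p14 and run 5′ to 3′ along the gene's strand.
ASNS, chr7:97872409-97872658, minus strand: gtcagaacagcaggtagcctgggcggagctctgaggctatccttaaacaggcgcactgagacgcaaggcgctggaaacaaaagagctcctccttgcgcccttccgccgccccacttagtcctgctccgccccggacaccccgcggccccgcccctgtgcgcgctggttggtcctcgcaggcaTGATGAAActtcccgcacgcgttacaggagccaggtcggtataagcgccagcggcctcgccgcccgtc
CHAC1, chr15:40953221-40953470, plus strand: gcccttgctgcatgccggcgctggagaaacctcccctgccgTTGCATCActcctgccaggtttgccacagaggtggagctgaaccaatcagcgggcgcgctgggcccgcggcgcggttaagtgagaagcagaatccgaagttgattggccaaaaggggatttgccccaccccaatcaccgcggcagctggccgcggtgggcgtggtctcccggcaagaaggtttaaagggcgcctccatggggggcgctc
The match lay 68 to 61 bases before the start in ASNS and, on the opposite strand, 209 to 202 bases before it in CHAC1. ATF3 also had a match, 191 to 184 bases before its upstream start. Both strands of windows from 250 bases before to 50 bases after each start were searched, and 1270 of 35116 windows (3.62%) held these letters. The other 7 genes had no match in their windows, which says only that these letters are not there. The 304 tested genes with a match had a median log2 fold change of -0.05, and 17 of them had an unadjusted p under 0.05 in edgeR, where 6.36% of all genes did.

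Among the ATF4 targets of amino acid and glutathione metabolism, ASNS (ENSG00000070669, chromosome 7 from 97852118 to 97872542, minus strand), which makes asparagine, had 6.45, 6.87 and 6.81 CPM in siControl and 5.36, 4.12 and 6.90 CPM in siHOXA3. The siControl libraries were close together with a CV of 3.45%, while the siHOXA3 libraries spread with a CV of 25.5% and held both the lowest value, in replicate 2, and the highest, in the library labelled siHOXA3 replicate 3. The log2 fold change of -0.30 (SE 0.22) was the lowest of the 10 genes and did not pass the test (edgeR adjusted p = 0.848, fold interval 0.584 to 1.13). It was -0.13 without siHOXA3 replicate 2 and -0.50 without the library labelled siHOXA3 replicate 3 (unadjusted p = 0.0526 and adjusted p = 0.625 in edgeR). ASNS shares 40.6% of its 50-base stretches with other annotated genes, mainly the read-through gene AC079781.5, which had 21 to 47 counts against 62 to 104 of ASNS, so its count is uncertain.

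CHAC1 (ENSG00000128965, chromosome 15 from 40952962 to 40956519, plus strand), which degrades glutathione, had 13.0, 12.4 and 7.80 CPM in siControl and 11.2, 12.7 and 9.93 CPM in siHOXA3. All siHOXA3 values lay inside the siControl range, whose lowest value was that of replicate 3. The fold change was 1.02 with an interval of 0.748 to 1.40 (log2 fold change 0.03, SE 0.21, edgeR adjusted p = 0.980). The log2 fold change was -0.06 without siHOXA3 replicate 2.

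TRIB3 (ENSG00000101255, chromosome 20 from 362835 to 397559, plus strand), a pseudokinase that binds ATF4 and AKT, had 26.3, 20.2 and 18.1 CPM in siControl and 15.4, 19.4 and 18.2 CPM in siHOXA3. The highest library was siControl replicate 1 and the lowest siHOXA3 replicate 1, with the others between 18.1 and 20.2 CPM. The mean was 21.6 ± 4.25 CPM in siControl and 17.6 ± 2.03 CPM in siHOXA3 (SD, n = 3), a log2 fold change of -0.29 (SE 0.16, edgeR adjusted p = 0.828). The size of this difference depended on the libraries. Without siControl replicate 1, the highest library, the log2 fold change was -0.12 (unadjusted p = 0.476 in edgeR), and without siHOXA3 replicate 1, the lowest, it was -0.20 (unadjusted p = 0.301). It was -0.36 without siHOXA3 replicate 2 (unadjusted p = 0.0337, edgeR adjusted p = 0.430), and without siControl replicate 3 it was -0.40 (unadjusted p = 0.0474, edgeR adjusted p = 0.997).

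SESN2 and DDIT4 both restrain the growth kinase mTORC1 under stress. SESN2 (ENSG00000130766, chromosome 1 from 28259527 to 28282491, plus strand), a sensor of leucine, had 85.7, 86.0 and 70.8 CPM in siControl and 87.7, 70.6 and 93.2 CPM in siHOXA3. The low libraries were siControl replicate 3 and siHOXA3 replicate 2, 1 in each group, and the log2 fold change was 0.05 (SE 0.13, edgeR adjusted p = 0.946). Without siHOXA3 replicate 2 the remaining 2 siHOXA3 libraries were above all siControl libraries, with a log2 fold change of 0.16 (SE 0.09, edgeR adjusted p = 0.562).

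DDIT4 (ENSG00000168209, REDD1, chromosome 10 from 72273920 to 72276036, plus strand) had 106.1, 99.3 and 62.8 CPM in siControl and 107.0, 121.5 and 99.0 CPM in siHOXA3. Replicate 3 of siControl was far below the other 5 libraries, which lay between 99.0 and 121.5 CPM. The log2 fold change of 0.29 (SE 0.17) was the highest of the 10 genes and did not pass the test (edgeR adjusted p = 0.828, fold interval 0.939 to 1.59). It was 0.09 without siControl replicate 3, 0.20 without siHOXA3 replicate 2 and 0.43 without siControl replicate 1 (unadjusted p = 0.0501 and adjusted p = 0.850 in edgeR). DDIT4 also had the largest ratio of the highest to the lowest library among the 10 genes, 1.93. The antisense gene DDIT4-AS1, which overlaps 41.2% of the exon bases of DDIT4, had no count.

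**Figure D2:**
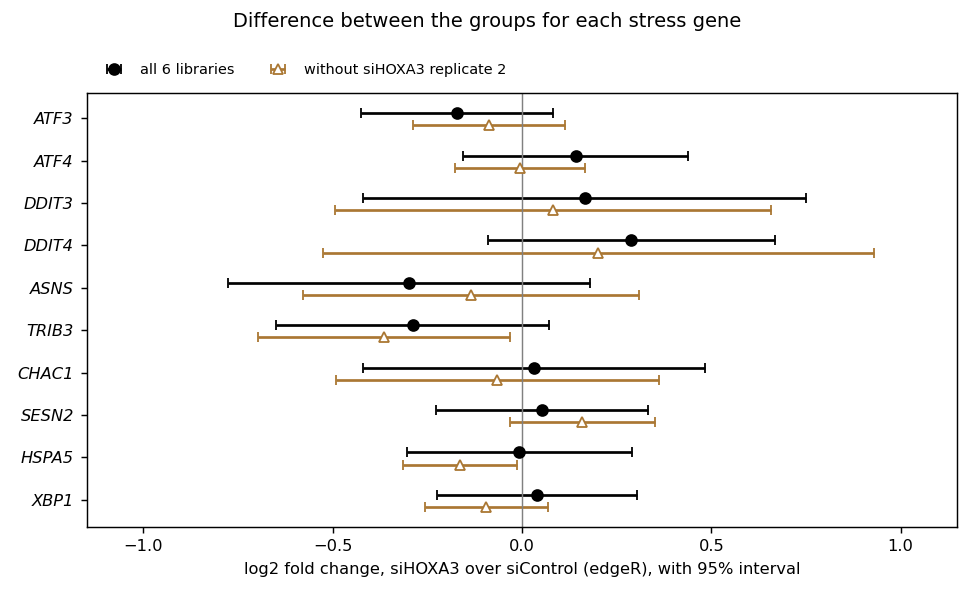
Log2 fold change of siHOXA3 over siControl (horizontal axis) for each gene with its 95% interval, from edgeR with all 6 libraries (black circles) and without siHOXA3 replicate 2 (open brown triangles). With all libraries every interval includes 0, and without that library the intervals of TRIB3 (-0.70 to -0.03) and HSPA5 (-0.31 to -0.01) do not, at adjusted p = 0.430 and 0.431 in edgeR.

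HSPA5 and XBP1 are shown with their upstream sequence because both hold the ER stress response element, searched on both strands as CCAAT and CCACG with 9 bases between them and printed in capitals. The 250 bases before the RefSeq start on GRCh38.p14 are given 5′ to 3′ along the gene's strand.
HSPA5, chr9:125241344-125241593, minus strand: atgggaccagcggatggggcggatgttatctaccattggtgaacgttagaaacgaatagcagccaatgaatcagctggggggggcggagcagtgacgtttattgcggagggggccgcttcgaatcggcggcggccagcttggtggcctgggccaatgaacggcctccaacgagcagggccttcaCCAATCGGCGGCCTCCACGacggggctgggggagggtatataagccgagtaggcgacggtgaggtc
XBP1, chr22:28800570-28800819, minus strand: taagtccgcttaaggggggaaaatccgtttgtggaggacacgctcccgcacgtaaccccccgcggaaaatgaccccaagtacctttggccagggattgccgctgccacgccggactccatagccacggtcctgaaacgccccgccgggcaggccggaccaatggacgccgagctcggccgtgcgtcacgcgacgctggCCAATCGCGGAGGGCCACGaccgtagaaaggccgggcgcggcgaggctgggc
The match lay 66 to 48 bases before the start in HSPA5 and 52 to 34 bases before it in XBP1. Only 27 of 35116 windows (0.0769%) held these letters, and the other 8 genes had no match. Neither gene, nor any other of the 10, held the cAMP response element TGACGTCA, present in 1.85% of windows. Of 16 tested genes with the ER stress element, HSPA5 and XBP1 among them, the median log2 fold change was -0.02. Of these 16 genes, 56.25% had their highest value in siHOXA3 replicate 2, against 31.3% of the 11091 tested genes with a window. HSPA5 and XBP1 were among those highest there, so this share is not independent of their own values.

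HSPA5 (ENSG00000044574, BiP, chromosome 9 from 125234853 to 125241330, minus strand), the main ER chaperone, had 1056, 1100 and 1001 CPM in siControl and 926.6, 1259 and 957.2 CPM in siHOXA3. The 3 siControl libraries lay between the high siHOXA3 replicate 2 and the other 2 siHOXA3 libraries, which were the lowest of the 6. The means were therefore nearly equal, 1053 ± 49.8 and 1048 ± 184 CPM (SD, n = 3), with a log2 fold change of -0.01 (SE 0.14, edgeR adjusted p = 0.993, fold interval 0.810 to 1.22). Without siHOXA3 replicate 2 the log2 fold change was -0.16 (SE 0.07), with an unadjusted p in edgeR of 0.0342 and an adjusted p of 0.431. HSPA5 shares 9.54% of its 50-base stretches with other annotated genes.

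XBP1 (ENSG00000100219, chromosome 22 from 28794555 to 28800597, minus strand), whose spliced form is the factor made by IRE1, had 130.3, 140.6 and 122.1 CPM in siControl and 124.0, 158.0 and 122.0 CPM in siHOXA3. Here too siHOXA3 replicate 2 was the highest library, and the other 2 siHOXA3 libraries lay at the low end of siControl. The log2 fold change was 0.04 with all libraries (SE 0.12, edgeR adjusted p = 0.958, fold interval 0.856 to 1.24) and -0.09 without siHOXA3 replicate 2.

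Within siHOXA3 replicate 2, the genes did not all move in the same direction. In siHOXA3 replicate 2, 4 of the 10 genes had their highest value (ATF4, DDIT4, HSPA5 and XBP1), where 28.9% of all genes did. In the same library 3 had their lowest (ATF3, ASNS and SESN2), where 29.2% of all genes did. In siControl replicate 3, 3 genes had their lowest value (ATF4, DDIT4 and CHAC1), where 17.9% of all genes did. The genes above their own mean numbered 9, 8 and 2 of the 10 in siControl replicates 1, 2 and 3. They numbered 5, 7 and 4 in siHOXA3 replicates 1, 2 and 3. The same shares over all genes are not given here. The median deviation of the genes from their own means on the log2(CPM + 0.5) scale was 0.22 in siHOXA3 replicate 2, between -0.10 and 0.09 in the other 5 libraries, and at most 0.01 for all genes in any library. Without siHOXA3 replicate 2, 3 of the 10 genes were higher and 7 lower in siHOXA3, with a median log2 fold change of -0.08, 2 of 10 had an unadjusted p under 0.05, both lower, against 10.7% of 17144 genes (5.45% lower), and 3 of 10 did not overlap against 27.6%. The adjusted p was under 0.05 for 0 of 10 then, against 0.14% of genes.

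**Figure D3:**
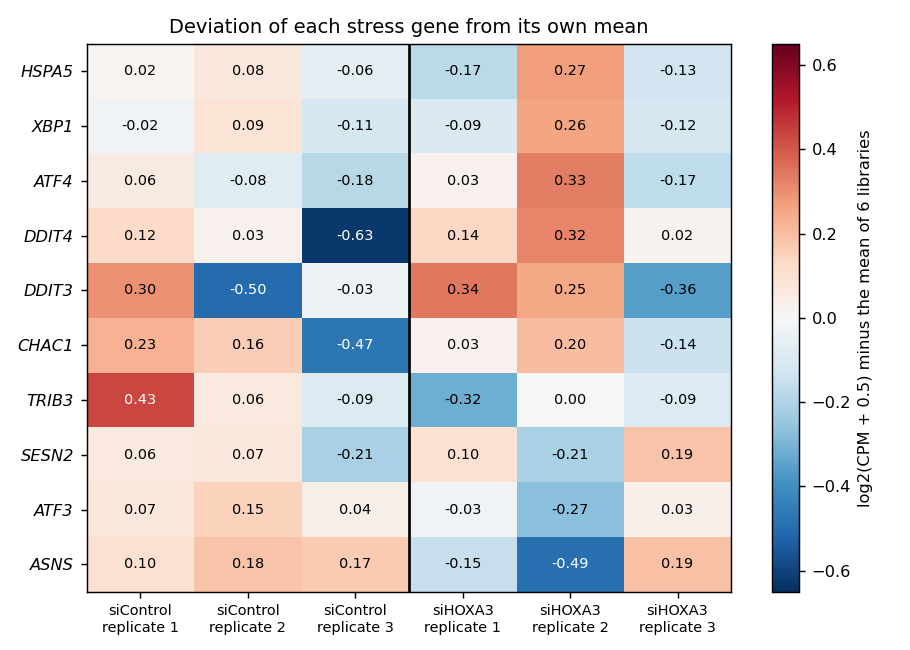
Deviation of each gene (rows) in each library (columns) from its mean over the 6 libraries, on the log2(CPM + 0.5) scale, with red above and blue below the mean and the value printed in each cell. The column of siHOXA3 replicate 2 holds HSPA5 at 0.27, XBP1 at 0.26 and ATF4 at 0.33 beside ASNS at -0.49 and ATF3 at -0.27, and the lowest value of the map is DDIT4 at -0.63 in siControl replicate 3.

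The wider pathways were described by 14 lists of genes, which held 164 genes besides the 10, of which 158 were tested. An adjusted p under 0.05 in edgeR was found for 0 of them and an unadjusted p under 0.05 for 9 (5.70%), near the 6.36% of all genes. Of these, 6 were higher and 3 lower in siHOXA3, where 3.79% and 2.57% of all genes were, and the median log2 fold change of the 158 genes was -0.02. DESeq2 called 1 of the 158, JUN, against 36 of all 16561 genes.

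Upstream of ATF4, 1 of 14 genes of eIF2, its kinases, its exchange factor and its phosphatases had an unadjusted p under 0.05. This was PPP1R15A (GADD34), which brings a phosphatase to eIF2 and ends the response. It had 22.7, 19.3 and 19.5 CPM in siControl and 26.7, 27.6 and 27.5 CPM in siHOXA3, higher in all 3 siHOXA3 libraries (log2 fold change 0.41, SE 0.12, unadjusted p = 0.00594, edgeR adjusted p = 0.588). The lowest fold change of that list was that of the heme-regulated kinase gene EIF2AK1 at -0.20 on the log2 scale. Among 13 tested bZIP relatives and partners of ATF4, 0 had an unadjusted p under 0.05, and the log2 fold changes ran from -0.20 for ATF1 to 0.37 for CEBPB.

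Downstream of ATF4, 15 of 18 genes of amino acid synthesis and transport had a log2 fold change below 0, with a list median of -0.07, where 49.6% of all genes were below 0. Without siHOXA3 replicate 2, 14 of the 18 were below 0. ALDH1L2, a mitochondrial enzyme of folate metabolism, was at the low end (-0.50, SE 0.21, unadjusted p = 0.0346, edgeR adjusted p = 0.741), and CTH, which makes cysteine, at the high end (0.28). Of 16 cytosolic aminoacyl-tRNA synthetases, which charge tRNAs with amino acids, 8 were above and 8 below 0. Without siHOXA3 replicate 2, 5 were above and 11 below 0. IARS, the isoleucine enzyme, had 373.1, 375.6 and 366.8 CPM in siControl and 317.2, 321.7 and 318.6 CPM in siHOXA3, lower in all 3 siHOXA3 libraries (-0.22, SE 0.10, unadjusted p = 0.0404, edgeR adjusted p = 0.759), while SARS was at the high end with 0.15.

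Among 11 tested secreted and other stress targets of ATF4 and DDIT3, 3 had an unadjusted p under 0.05. Besides PPP1R15A these were GDF15, a secreted stress factor, with 18.1, 18.2 and 13.2 CPM in siControl and 21.0, 21.1 and 20.7 CPM in siHOXA3 (log2 fold change 0.34, SE 0.15, edgeR adjusted p = 0.761), and STC2, a secreted glycoprotein, with 105.6, 89.4 and 85.9 CPM in siControl and 84.7, 70.2 and 79.4 CPM in siHOXA3 (-0.26, SE 0.12, edgeR adjusted p = 0.767). In both cases the groups did not overlap, as in 4 of the 11 genes of this list and 13.3% of all genes. The directions of GDF15 and STC2 were opposite. Of the 5 sestrin and REDD genes, SESN2 and DDIT4 included, 0 had an unadjusted p under 0.05, and DDIT4L had the lowest value at -0.10.

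On the ER side, 10 tested sensor genes of the unfolded protein response had a median log2 fold change of -0.12, from -0.23 for ERN1 to 0.29 for CREB3L1, with 0 at an unadjusted p under 0.05. ER-associated degradation, the route by which misfolded protein leaves the ER, had the same count of 0 in 14 genes and a median of -0.12, from -0.29 for DERL3 to 0.08 for EDEM2. Of 20 ER chaperones and folding enzymes, 14 had a log2 fold change above 0, with a median of 0.07. Without siHOXA3 replicate 2, 10 were above and 10 below 0, with a median of 0.00. ERP29, an ER folding factor, had 138.4, 134.4 and 116.2 CPM in siControl and 156.5, 186.3 and 143.9 CPM in siHOXA3, higher in all 3 siHOXA3 libraries (0.32, SE 0.12, unadjusted p = 0.0210, edgeR adjusted p = 0.724). The list ran from -0.20 for CANX to 0.34 for SDF2L1.

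**Figure D4:**
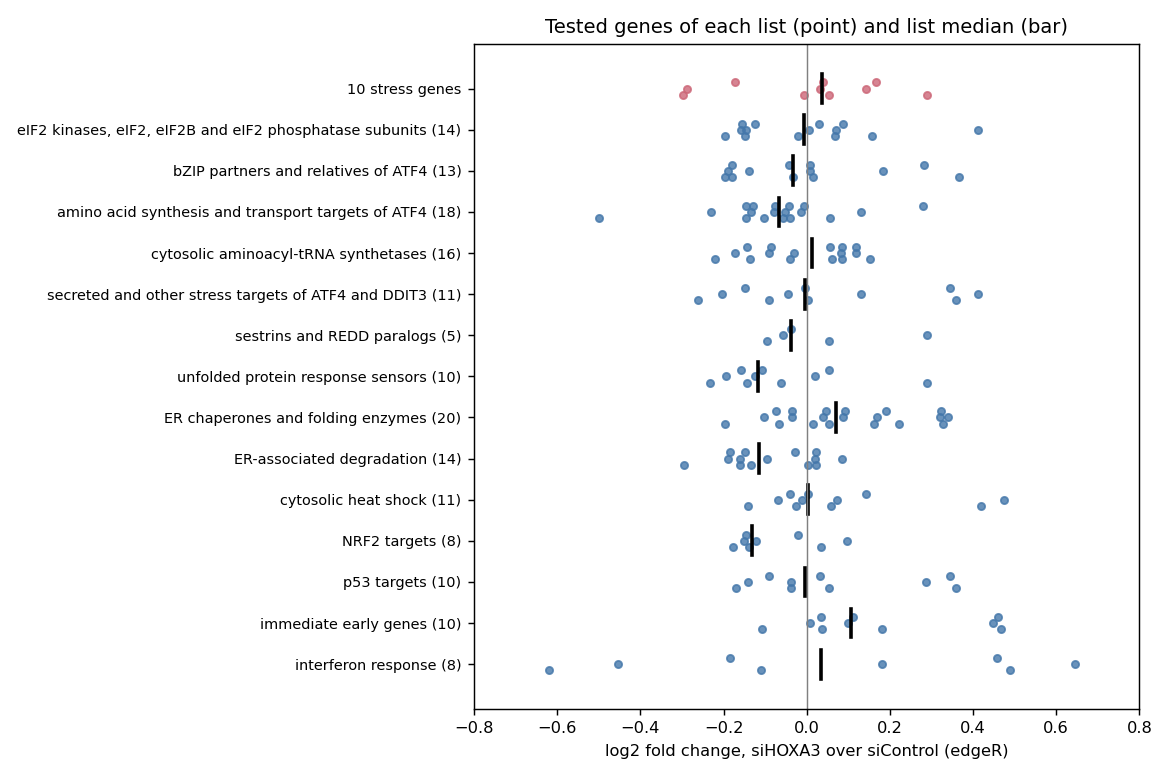
Log2 fold change of siHOXA3 over siControl (horizontal axis, edgeR) for each tested gene (points) of the 10 stress genes (red) and of the 14 pathway lists (blue, number tested in parentheses), with the list median as a black bar. The medians of the lists lie between -0.13 for NRF2 targets and 0.11 for immediate early genes, and genes on both sides of 0 occur in every list.

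The chaperone list showed the same library as HSPA5 did. Of its 20 genes, 14 had their highest value in siHOXA3 replicate 2, where 28.9% of all genes did. Another 4 had their lowest value there (CANX, HYOU1, P4HB and DNAJC3), where 29.2% of all genes did. CANX had 528 CPM there against 608 to 688 CPM in the other 5 libraries, and HYOU1 had 187 CPM against 217 to 227 CPM. SDF2L1, a partner of HSPA5, had 34.2 CPM there against 17.6 to 19.9 CPM in the other 5 libraries. MANF, a secreted ER stress protein, had 61.1 CPM there against 37.9 to 43.4 CPM, and HSP90B1, the ER form of HSP90, had 1497 CPM against 1125 to 1236 CPM. MANF, HSP90B1, HYOU1, P4HB and DNAJC3 were named after their values were seen. In the same library 8 of 11 cytosolic heat shock genes and 9 of 16 aminoacyl-tRNA synthetases also had their highest value. This library stood apart across all genes, and the part of that in the chaperone values was not tested.

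**Figure D5:**
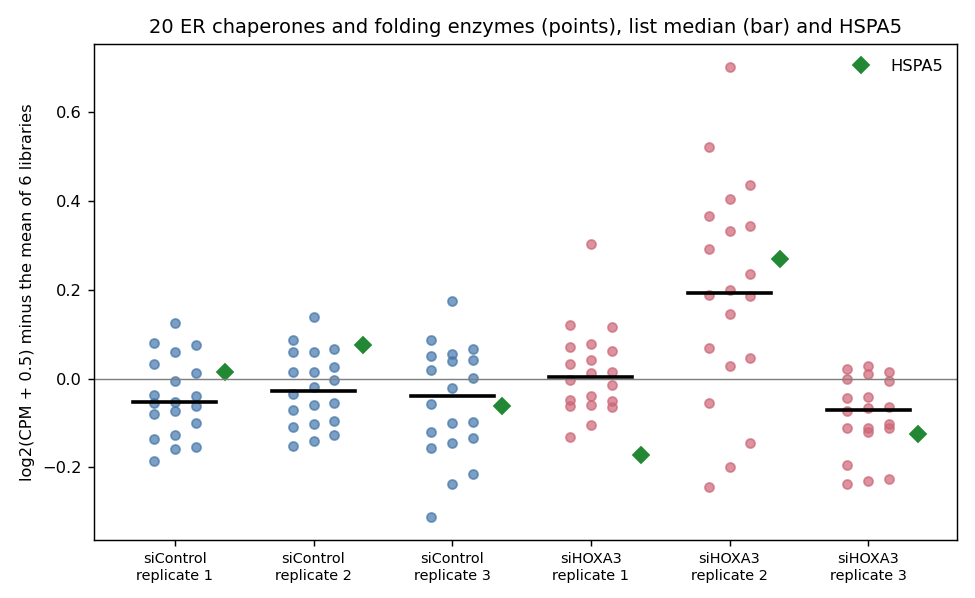
Deviation of the 20 ER chaperone and folding enzyme genes from their own means over the 6 libraries (vertical axis, log2(CPM + 0.5) scale) in each library, with the list median as a black bar and HSPA5 as a green diamond beside it. The median is 0.19 in siHOXA3 replicate 2 and between -0.07 and 0.00 in the other 5 libraries.

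Lists of neighbouring responses covered heat shock, oxidative stress, p53, immediate early genes and interferon. HSPB1, a small heat shock protein, had 51.4, 40.3 and 37.1 CPM in siControl and 53.4, 75.3 and 50.2 CPM in siHOXA3, with overlapping groups (log2 fold change 0.47, SE 0.17, edgeR adjusted p = 0.720), and an unadjusted p under 0.05 was found for this gene alone among 11 cytosolic heat shock genes. HSPH1 had the lowest value of that list at -0.14. Of 8 NRF2 targets, genes of the oxidative stress response, 0 had an unadjusted p under 0.05, and GCLM had the lowest log2 fold change at -0.18. Of 10 p53 targets, GDF15 alone passed that level, and the list ran from -0.17 for RRM2B to 0.36 for BBC3.

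JUN, an immediate early gene whose protein pairs with ATF factors, had 147.4, 142.0 and 131.2 CPM in siControl and 194.6, 195.4 and 188.3 CPM in siHOXA3. All 3 siHOXA3 libraries were higher, by a log2 fold change of 0.46 (SE 0.09). It had the lowest adjusted p of all listed genes, 0.458 in edgeR. JUN was called by DESeq2, by limma-voom and by edgeR without siHOXA3 replicate 2. These fits called 36 of 16561, 47 of 16561 and 24 of 17144 genes. Of the 10 immediate early genes, 9 had a log2 fold change above 0, with a median of 0.11, where 50.4% of all genes were above 0. Without siHOXA3 replicate 2, 7 of them were above 0. In siControl replicate 3, 7 of the 10 had their lowest value, where 17.9% of all genes did. FOSL1 was the highest at 0.47 and KLF6 the lowest at -0.11. Of 8 tested interferon response genes, which double-stranded RNA can induce, 4 were above and 4 below 0. Without siHOXA3 replicate 2, 9 were tested, with 3 above and 6 below 0. IFIT1 had 3.02, 2.78 and 3.01 CPM in siControl and 4.95, 3.79 and 5.07 CPM in siHOXA3 (0.65, SE 0.23, unadjusted p = 0.0168, edgeR adjusted p = 0.720), and IFIH1 was the lowest of the list at -0.62.

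With siHOXA3 replicate 2 left out, more genes of several lists had an unadjusted p under 0.05 in edgeR, where 10.7% of all genes did. The counts were 4 of 11 for cytosolic heat shock (HSPB1, HSPA1A, HSP90AA1 and HSPH1, 2 higher and 2 lower in siHOXA3), 4 of 11 for the secreted and other stress targets (PPP1R15A, GDF15, STC2 and XPOT, 2 higher and 2 lower), 3 of 10 for p53 targets (GDF15, MDM2 and RRM2B), 2 of 8 for NRF2 targets (GCLM and NQO1, both lower) and 2 of 9 for interferon genes (IFIT1 and IFIH1, 1 higher and 1 lower). They were 2 of 16 for aminoacyl-tRNA synthetases (IARS and NARS), 1 of 14 for the eIF2 list (PPP1R15A), 1 of 13 for the bZIP relatives (ATF1), 1 of 18 for amino acid synthesis and transport (SLC3A2), 1 of 20 for ER chaperones (ERP29), 1 of 14 for ER-associated degradation (HERPUD1) and 1 of 10 for immediate early genes (JUN). The 5 sestrin and REDD genes and the 10 sensor genes had 0. Those of these genes that were not named above were named after their values were seen. JUN alone among the listed genes had an adjusted p under 0.05 in that fit, where 0.14% of all genes did. In this fit 8660 of 17144 genes had a log2 fold change above 0 and 8484 below. Genes below 0 numbered 13 of 14 in the eIF2 list (7 with all libraries) and 12 of 14 in ER-associated degradation (9). They numbered 9 of 13 bZIP relatives (7), 8 of 11 secreted and other targets (6) and 2 of 5 sestrin and REDD genes (3). They were 7 of 10 sensors (7) and 7 of 11 heat shock genes (5). Among NRF2 targets they were 6 of 8 (6), and among p53 targets 6 of 10 (5).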

How the data were processed

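RNA-seq libraries of 3 siControl and 3 siHOXA3 samples were analysed. The authors deposited raw counts of reads per gene, as whole numbers without normalization. The aligner, the counting program and the use of strand are not given in the sources used here; the submitters' processing notes name the mouse builds GRCm38 and mm10, although all 58735 identifiers were human genes of GENCODE release 29. Both an LM-Seq protocol and a SMARTER kit are named for the libraries.

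Counts were tested in R 4.3.3 with edgeR 4.0.16 (filterByExpr, TMM, robust quasi-likelihood fit, two-sided test, Benjamini-Hochberg adjustment over 16561 genes). CPM were computed from the deposited counts. Intervals are 95% intervals of the fit. Alternatives were DESeq2 1.42.0, which the study used, limma-voom (limma 3.58.1) with quality weights, scaling by the upper quartile or by library size alone, unfiltered counts, a minimum of CPM above 1 in 3 libraries, a block for the replicate number, and each library left out. The steps were tested on simulated data. Motifs were searched in RefSeq promoter windows, which covered 10 of 10 genes. Shared sequence was counted over 50-base stretches of annotated transcripts.

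The 10 genes and the lists were chosen with earlier results of these data known, so lists are described by counts and medians without a test. Named were all 10 genes, HOXA3 and, of each list, genes with an unadjusted p under 0.05 and those with the highest and lowest fold change. Single values of a few listed genes are not reported here.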

Additional observations from a re-analysis of the deposited data

How the results depend on the processing

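Over all 13 alternatives, 0 of the 10 stress genes had an adjusted p under 0.05, the lowest being 0.315 (TRIB3, limma-voom), and ATF3, DDIT4, ASNS and TRIB3 kept their direction in every fit. Of 130 values of single genes, 116 kept direction and 14 changed sign. Outside the fits that left out a library, HSPA5 became 0.014 with upper-quartile normalization, and CHAC1 became -0.056 and XBP1 -0.093 with limma-voom. Leaving out each library in turn gave log2 fold changes of -0.0057 to 0.25 for ATF4, -0.23 to -0.09 for ATF3, -0.50 to -0.13 for ASNS, -0.40 to -0.12 for TRIB3, 0.09 to 0.43 for DDIT4, -0.032 to 0.39 for DDIT3, -0.17 to 0.16 for CHAC1, -0.034 to 0.16 for SESN2, -0.16 to 0.075 for HSPA5 and -0.094 to 0.11 for XBP1, and a median of the 10 genes of -0.08 to 0.08. The cause was not tested.

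The count of all genes with an adjusted p under 0.05 was 1 with edgeR and 100 with edgeR on unfiltered counts. It was 47 with limma-voom, 36 with DESeq2 and 1 to 24 with a library left out, the highest without siHOXA3 replicate 2. With the replicate number as a block it was 4, and the block called 0 of the 10 genes. Samples of the same number did not deviate together in every pair (correlations 0.158, 0.111 and -0.07). Pairs of unlike number were not correlated, so these values cannot decide whether the numbers pair the samples. The main fit did not take them to do so. The unadjusted p of DDIT4 was 0.123 in edgeR, 0.0178 with no filter and 0.0294 with the block. Of 182 list medians under the alternatives, 24 moved by more than the spread between replicates. With 3 libraries a group and SEs of 0.12 to 0.27 on the log2 scale, small changes of single stress genes were not detectable.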
